A study of Homo sapiens with 9 samples.

Results

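Open chromatin was examined at 10 genes of the YAP, TAZ and TEAD pathway, among 20007 protein-coding genes with a canonical transcript, in MDA-MB-231 cells, a human triple-negative breast cancer cell line. The genes were chosen by their known roles, though with earlier results of these data known. They were the DNA-binding factors TEAD1, TEAD2, TEAD3 and TEAD4, the coactivators YAP1 and WWTR1, the latter encoding TAZ, and the targets CCN1, CCN2, ANKRD1 and AMOTL2. For each gene, the peaks of 9 ATAC-seq libraries were taken from the promoter, set as 1 kb on either side of the transcription start site (TSS), from the gene body and from the sequence up to 100 kb away from the TSS. ATAC-seq marks open chromatin by inserting sequencing adapters with the Tn5 transposase.

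The cells carried a control shRNA (shCtrl, 2 libraries), 1 shRNA against EZH2 (shEZH2, 2 libraries), 1 against E2F1 (shE2F1, 2 libraries) or 1 against SUZ12 (shSUZ12, 1 library). All were delivered by lentivirus over 24 h and followed by puromycin at 2 μg/ml for 72 h. Cells without an shRNA received DMSO (1 library) or GSK126 (1 library), an inhibitor of the EZH2 methyltransferase, for 72 h at a dose that the labels do not give. The title of the control sample says DMSO while its treatment label says WT. EZH2 and SUZ12 are subunits of PRC2, which methylates histone H3 at lysine 27, and E2F1 is a transcription factor of the cell cycle. Nothing in the labels says that the libraries of a group came from separate cultures, so the spread between them may be technical, and shSUZ12, DMSO and GSK126 had no replicate.

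YAP and TAZ are coactivators that bind no DNA themselves and act mainly through the TEAD factors, which recognise the letters GGAATG and their complement CATTCC. The Hippo kinases of the MST and LATS families phosphorylate YAP and TAZ and hold them out of the nucleus. In triple-negative breast cancer cells, YAP, TAZ and TEAD are known to occupy mostly distal enhancers, often together with AP-1 factors, and to drive genes of growth, matrix and cell shape.

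The shortest peak list, of the second shEZH2 library, held 58626 peaks and the longest, of the second shE2F1 library, held 85812, and the modal background, which follows depth, ranged from 1.41 to 2.18 tags. The second shEZH2 library and the first shE2F1 library were the shallowest of the transduced cells, at 1.41 and 1.5 tags against 1.79 and 2.08 in the shCtrl libraries. Merging the peaks gave 118719 regions, and 34.2% of them were called in all 9 libraries. Promoters of VIM, CD44 and AXL, which mesenchymal-like cells of this kind use, had a peak in all 9 libraries. GATA3, a luminal factor, had none, and ESR1 and CDH1 had a weak peak in 8, at the 35.6th percentile or below. By rank, AXL did not stand apart from ESR1 and CDH1, at the 0.81st to 24.25th percentile. VIM and CD44 stood at 22.05 to 60.3 and 22.0 to 62.3. EPCAM, an epithelial gene, went against its place in that list, with a promoter peak at the 61.3rd to 92.2nd percentile in all 9. Percentiles throughout are ranks of the fold enrichment of a peak over its local background within the peak list of its own library, unless another measure is named, and the strongest peak was taken where a promoter held several.

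Sequences are shown for promoters with the TEAD letters near the accessible summit, where most tags piled up, and for distal regions of the target genes. RefSeq promoters of GRCh38.p14 were matched for 7 of the 10 genes. TEAD1, TEAD4 and CCN1 were not among them. For WWTR1 and AMOTL2 the RefSeq start lay 45248 and 970 bp from the TSS used here, so that their RefSeq promoters are not where the promoter peaks were. The 250 bases before the RefSeq start are given for the 3 genes whose RefSeq promoter held the letters, read 5′ to 3′ along the gene, with GGAATG in capitals.
YAP1 promoter, plus strand, chr11:102110197-102110446: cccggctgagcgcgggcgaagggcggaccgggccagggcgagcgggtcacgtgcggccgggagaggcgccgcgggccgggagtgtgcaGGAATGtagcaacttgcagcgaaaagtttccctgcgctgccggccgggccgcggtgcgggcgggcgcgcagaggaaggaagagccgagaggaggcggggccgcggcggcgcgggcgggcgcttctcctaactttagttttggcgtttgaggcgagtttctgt
CCN2 promoter, minus strand, chr6:131951373-131951622: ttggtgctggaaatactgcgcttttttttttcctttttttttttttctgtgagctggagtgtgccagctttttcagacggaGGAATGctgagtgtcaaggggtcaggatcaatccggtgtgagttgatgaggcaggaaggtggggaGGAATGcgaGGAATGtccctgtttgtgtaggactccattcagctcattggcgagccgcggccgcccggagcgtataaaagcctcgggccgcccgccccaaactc
ANKRD1 promoter, minus strand, chr10:90921088-90921337: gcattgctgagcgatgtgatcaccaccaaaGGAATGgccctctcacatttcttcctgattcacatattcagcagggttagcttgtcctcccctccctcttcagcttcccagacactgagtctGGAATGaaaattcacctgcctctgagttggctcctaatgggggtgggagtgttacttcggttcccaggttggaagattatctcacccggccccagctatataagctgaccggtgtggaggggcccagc
Counted from the start site, with the base before it as -1, the letters began at -162 in YAP1, at -169, -104 and -95 in CCN2 and at -220 and -128 in ANKRD1. The letters were present in 14.0% of all 35116 RefSeq promoters, each of 300 bases, on either strand. The promoter summit of CCN2 lay 0 to 44 bp from the nearest of them in the 9 libraries, and that of ANKRD1 lay 6 to 51 bp away. In YAP1, the summit fell 0 to 18 bp from the letters in 7 libraries, and in the second shCtrl and second shE2F1 libraries it lay 1729 and 1723 bp downstream of the TSS, at the far end of the same broad peak. A match of letters describes the sequence and does not show that a TEAD factor was bound.

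Distal sequences are 101 bases around the highest-ranked summit in a region, on the plus strand of the hg38 genome, with GGAATG or CATTCC and the AP-1 letters TGANTCA in capitals. The CCN1 and CCN2 regions are the strongest distal ones of these genes, and the AMOTL2 region is the one distal region with a peak in every library that held both kinds of letters within these 101 bases. Within 100 bp of the summit, a region upstream of YAP1 held both as well.
CCN1, intergenic, chr1:85495699-85495799: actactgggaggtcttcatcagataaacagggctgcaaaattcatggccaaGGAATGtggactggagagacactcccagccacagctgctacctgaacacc
AMOTL2, intergenic, chr3:134348699-134348799: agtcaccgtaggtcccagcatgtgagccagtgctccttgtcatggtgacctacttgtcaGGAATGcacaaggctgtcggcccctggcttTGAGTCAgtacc
CCN2, intron 9 of ENPP1, chr6:131864124-131864224: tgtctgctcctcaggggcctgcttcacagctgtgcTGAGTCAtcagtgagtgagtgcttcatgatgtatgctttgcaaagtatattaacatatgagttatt
Intergenic means outside the canonical transcript of every protein-coding gene. The CCN1 region lay 85.01 kb upstream of the CCN1 TSS, with the TEAD letters next to the central base, and its nearest TSS was that of DDAH1. The AMOTL2 region lay 25.7 kb downstream of the TSS, beyond the end of the gene, with a TEAD and an AP-1 match, and the CCN2 region lay 87.2 kb downstream with an AP-1 match alone.

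All 10 genes had a promoter peak in every library, against 60.09% of all protein-coding genes. The rank of these peaks spanned nearly the whole list. Their median percentile was 53.0, beside 78.5 over all protein-coding genes with a promoter peak in every library. By their median over the 9 libraries, the order was TEAD2 at the 91.0th percentile, TEAD1 at 85.3, WWTR1 at 74.1, ANKRD1 at 71.6, AMOTL2 at 54.9, YAP1 at 51.1, TEAD4 at 33.8, TEAD3 at 25.4, CCN2 at 24.5 and CCN1 at 0.494. The ranges of neighbours in this order overlapped for every pair except CCN2 and CCN1, whose values of 6.81 to 55.7 and 0.0128 to 2.00 did not meet.

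**Figure D1:**
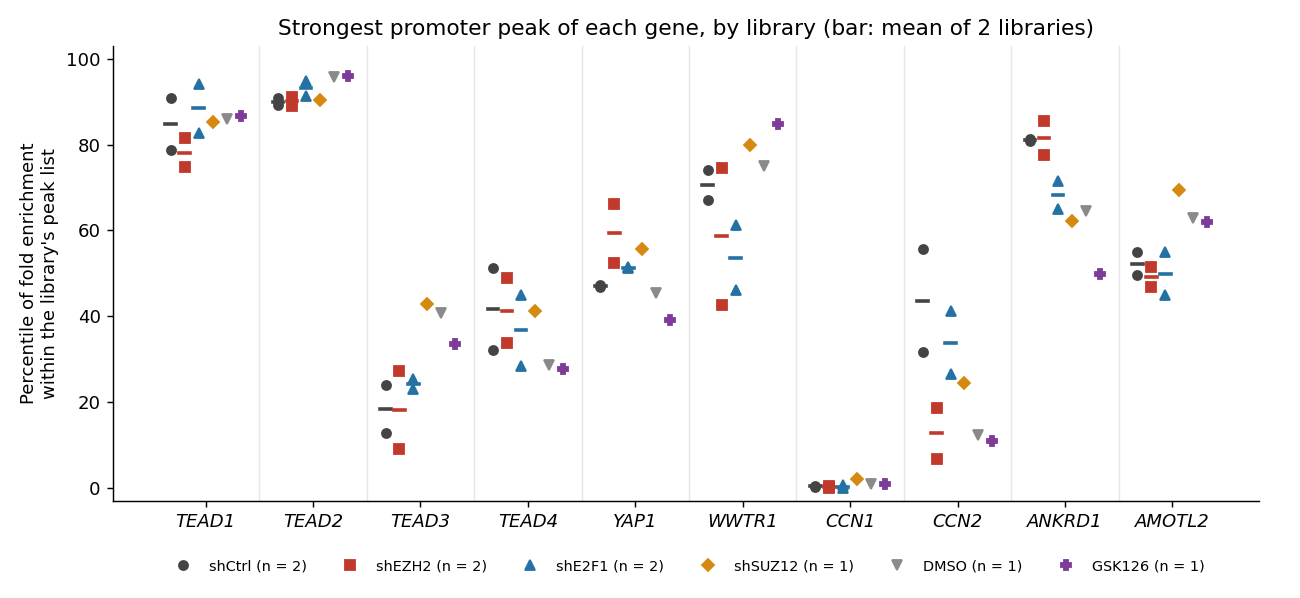
Each point is 1 library and gives the percentile of fold enrichment of the strongest peak within 1 kb of the TSS (y axis) for the 10 genes (x axis), and bars are means of 2 libraries. CCN1 lies at or below 2.00 in every library, both shEZH2 points of CCN2 lie under its shCtrl points, and both shE2F1 points of WWTR1 and ANKRD1 lie under theirs.

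TEAD1, a TEAD factor used across many tissues, had its summit 46 to 218 bp upstream of the TSS at chr11:12674421, on the plus strand. Its percentiles were 78.8 and 90.8 in shCtrl, 74.7 and 81.5 in shEZH2, 82.7 and 94.2 in shE2F1, 85.3 in shSUZ12, 85.9 in DMSO and 86.7 in GSK126. By fold, shEZH2 and shE2F1 both overlapped shCtrl. On summit tags, the shEZH2 percentiles of 87.1 and 82.8 lay below the 87.2 and 92.7 of shCtrl, as they did at 46.3% of all promoters. TEAD2, a factor best known from embryonic cells, ranged from the 89.1st to the 96.1st percentile, but the summit of that peak lay 1283 to 1323 bp upstream of the TEAD2 TSS, outside the window, and the nearest TSS was that of DKKL1 on the other strand. Peaks with their own summit inside the TEAD2 window were found in 5 of the 9 libraries, all at or below the 1.4th percentile. The high rank listed for TEAD2 therefore belongs to a peak that only overlaps its promoter window.

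TEAD3, a factor known from placenta, had a broad promoter peak of 1863 to 2055 bp at low rank: 12.9 and 23.9 in shCtrl, 27.3 and 9.02 in shEZH2, 25.4 and 23.04 in shE2F1, 42.9 in shSUZ12, 40.8 in DMSO and 33.6 in GSK126. The summit moved along this peak from 948 bp upstream to 617 bp downstream of the TSS. TEAD4, a factor needed for the trophectoderm of the early embryo, had its summit 393 to 449 bp upstream, at percentiles of 32.1 and 51.4 in shCtrl, 33.8 and 48.8 in shEZH2, and 45.0 and 28.3 in shE2F1. The single libraries of TEAD4 gave 41.2 in shSUZ12, 28.7 in DMSO and 27.8 in GSK126. For TEAD3 and TEAD4 alike, the 2 shCtrl libraries differed from each other by more than the means of shCtrl and either replicated knockdown did.

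YAP1 encodes YAP, and its promoter percentiles were 47.4 and 46.8 in shCtrl, 66.25 and 52.45 in shEZH2, 51.1 and 51.6 in shE2F1, 55.7 in shSUZ12, 45.4 in DMSO and 39.1 in GSK126. Both shEZH2 libraries and both shE2F1 libraries lay above both shCtrl libraries, by 12.3 and 4.26 percentile points on average. The number of tags at the summit gave no such separation for shEZH2, with percentiles of 91.4 and 90.05 in shCtrl against 96.3 and 87.2 in shEZH2. WWTR1, the TAZ gene, gave 74.1 and 67.1 in shCtrl, 42.6 and 74.65 in shEZH2, 46.1 and 61.2 in shE2F1, 79.9 in shSUZ12, 75.0 in DMSO and 84.9 in GSK126. Both shE2F1 libraries were below all 5 libraries of the shCtrl, shSUZ12, DMSO and GSK126 groups, while the 2 shEZH2 libraries fell on either side of shCtrl. On summit tags, WWTR1 kept the same separation, at the 76.1st and 81.3rd percentile in shE2F1 against 92.6 and 87.7 in shCtrl.

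CCN2, also called CTGF, encodes a secreted matrix protein and is the most used readout of YAP and TAZ activity. Its promoter gave 31.6 and 55.7 in shCtrl, 18.5 and 6.81 in shEZH2, 26.4 and 41.1 in shE2F1, 24.5 in shSUZ12, 12.25 in DMSO and 10.9 in GSK126. Both shEZH2 values were below both shCtrl values, with means of 12.7 ± 8.28 and 43.6 ± 17.05 (SD, n = 2 each). The untransduced DMSO and GSK126 libraries were as low as the shEZH2 libraries, and shSUZ12 was also below both shCtrl libraries. On summit tags the shEZH2 values of 92.25 and 86.8 again lay below the 94.6 and 93.2 of shCtrl, but by 4.39 percentile points on average rather than the 30.9 on the fold scale. Both shE2F1 values, 88.6 and 89.9, lay below shCtrl on tags too, with a mean difference of -4.66 points. So did 92.3 in shSUZ12 and 91.85 in DMSO, while GSK126 lay above at 95.5.

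ANKRD1, an ankyrin repeat protein of muscle and stressed cells and a standard YAP and TAZ target, gave 80.9 and 81.2 in shCtrl, 85.4 and 77.5 in shEZH2, 65.1 and 71.6 in shE2F1, 62.3 in shSUZ12, 64.4 in DMSO and 49.9 in GSK126. The shE2F1 libraries averaged 12.7 points below shCtrl, and the shSUZ12, DMSO and GSK126 libraries were below shCtrl too. On summit tags, the shE2F1 values of 76.1 and 77.4 lay among the 75.5 and 83.6 of shCtrl, and the shEZH2 values of 84.2 and 84.4 lay above them. AMOTL2, an angiomotin family protein that binds and restrains YAP and is itself a YAP target, gave 49.7 and 54.9 in shCtrl, 51.5 and 46.7 in shEZH2, and 44.9 and 55.0 in shE2F1. Its shSUZ12, DMSO and GSK126 values were 69.4, 62.8 and 62.0, all above every replicated library. By summit tags, the AMOTL2 values of 91.2 and 90.3 in shE2F1 lay below the 91.9 and 92.4 of shCtrl.

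CCN1, also called CYR61, encodes a secreted matrix protein of the same family as CCN2. Its promoter peak had fold enrichments of 2.39 and 2.41 in shCtrl, 2.59 and 2.14 in shEZH2, 2.80 and 1.92 in shE2F1, 2.99 in shSUZ12, 2.82 in DMSO and 2.92 in GSK126. These placed it at percentiles from 0.0128 to 2.00, and in the second shE2F1 library no promoter with a peak, of 13266, ranked lower. The summit was nevertheless tall, with 184 and 184 tags in shCtrl, 151 and 102 in shEZH2, 112 and 119 in shE2F1, 290 in shSUZ12, 250 in DMSO and 243 in GSK126. Ranked by those tags, the same peak stood at the 93.7th to 99.3rd percentile. The local background that divides the tags was 39.3 to 96.4 tags, at the 99.99th percentile or above of all peaks in each library. The low fold at CCN1 is thus a ratio of a tall summit to tall surroundings, and it does not mark a closed promoter.

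Few promoters shared this combination. Of the 223 to 304 promoters at or below the 5th percentile of fold in a library, 6 to 17 were at or above the 90th percentile of summit tags, and CCN1 was among them in all 9. TEAD3 and CCN2 showed a milder form, with median fold percentiles of 25.4 and 24.5 against median tag percentiles of 95.95 and 92.25, and local backgrounds at the 95.2nd percentile or above. TEAD1 ranked alike on both measures, with medians of 85.3 and 92.7. Ordered by summit tags, TEAD2 with its neighbouring peak came first at a median of 99.96, followed by CCN1 at 98.4 and TEAD3 at 95.95, and TEAD4 was last at 75.9.

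**Figure D2:**
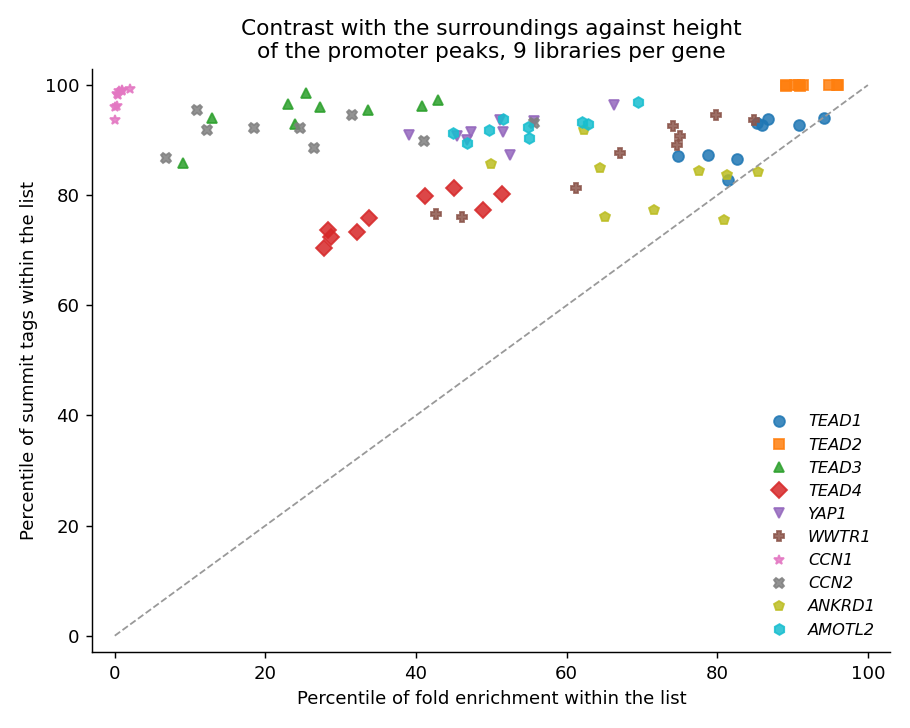
Each point is the promoter peak of 1 gene in 1 library, with its percentile of fold enrichment (x axis) and of summit tags (y axis) within the peak list, and the dashed line marks equal ranks. CCN1 sits in the upper left corner, at or below 2.00 for fold and at 93.7 or above for tags, and every TEAD1 and TEAD2 point lies within 12.4 points of the line.

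With shEZH2, 1 of the 10 promoters (CCN2) was lower and 1 (YAP1) higher, with no overlap between the knockdown and shCtrl libraries, where 29.7% and 10.6% of all promoters were. With shE2F1, 2 of 10 (WWTR1 and ANKRD1) were lower and 2 (TEAD2, through the peak next to DKKL1, and YAP1) higher, beside 17.0% and 19.2% of all promoters. The count lower with shEZH2, 10.0%, was below the share over all promoters, and the other counts were near theirs. They describe the individual genes and are no result about the 10 together. Libraries set 2 against 2 cannot go below an exact two-sided permutation p of 0.333, and no test was made. The shSUZ12 library lay above both shCtrl libraries at 5 of 10 promoters and below both at 2, against 52.6% and 19.2% of all promoters. The GSK126 library lay below DMSO at 6 of 10, against 56.3%. Differences between GSK126 and DMSO ran from a drop of 14.5 points at ANKRD1 to a rise of 9.83 points at WWTR1, with 1 library each.

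Around the 10 genes, 212 merged regions were found: 12 in promoters, 74 in gene bodies and 126 in the flanks. Of these, 89 (41.98%) had a peak in all 9 libraries, beside 34.2% of all regions, and 20.3% had a peak in 1 library, beside 24.3%. Each library had a peak at 109 to 153 of them, which was 0.167% to 0.207% of its regions. The long TEAD1 locus held the most regions, 32, of which 25 lay in the gene body outside the promoter, and CCN1, a gene of 3.19 kb, held 30, of which 26 lay in its flanks. The regions of TEAD2, YAP1 and ANKRD1 numbered 13 each.

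Of the 200 regions outside the promoters of the 10 genes, 79 had a peak in every library, with a median percentile from 1.13 to 98.9. Among regions with a peak in every library, 12 stood above the promoter at CCN1, 10 at TEAD3 and 7 at YAP1, and none at TEAD2. For TEAD2, the promoter rank is that of the peak next to DKKL1. The strongest distal regions were in intron 9 of TEAD1, 226.26 kb into the gene (chr11:12900397-12901051), with a median percentile of 98.9, and 99.15 kb upstream of YAP1 (chr11:102010655-102011466), with 98.4. At CCN2 the strongest one lay in intron 9 of ENPP1 (chr6:131863764-131864363), with 98.01, and at CCN1 85.01 kb upstream (chr1:85495385-85495964), with 96.1. AMOTL2 had its strongest one 53.1 kb upstream (chr3:134426849-134428037), with 91.2, and TEAD2 had it 60.96 kb downstream in intron 7 of SLC6A16 (chr19:49301120-49302217), with 89.0. At the other four genes the strongest region was the promoter of a neighbour, FANCE for TEAD3, TULP3 for TEAD4, COMMD2 for WWTR1 and RPP30 for ANKRD1. The nearest TSS was that of RASSF10 for the TEAD1 region, of CFAP300 for the YAP1 region and of DDAH1 for the CCN1 region. Nearness does not show which gene such a region serves.

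The CCN1 region with the TEAD letters at its summit ranked at 93.9 and 85.2 in shCtrl, 96.1 and 96.4 in shEZH2, 98.9 and 96.5 in shE2F1, 95.9 in shSUZ12, 89.2 in DMSO and 98 in GSK126. By fold over local background it was thus among the most enriched peaks of every list, while the CCN1 promoter was among the least. By summit tags the promoter was the taller of them in every library, with 102 to 290 tags against 56 to 95 at this region. The CCN2 region in ENPP1 ranked at 98.01 and 99.9 in shCtrl, 98.9 and 81.7 in shEZH2, 95.4 and 89.0 in shE2F1, 99.3 in shSUZ12, 99.4 in DMSO and 96.5 in GSK126. Its summit held 53 and 94 tags in shCtrl, 56 and 25 in shEZH2 and 30 and 39 in shE2F1, so that shEZH2 overlapped shCtrl and both shE2F1 libraries lay below it.

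**Figure D3:**
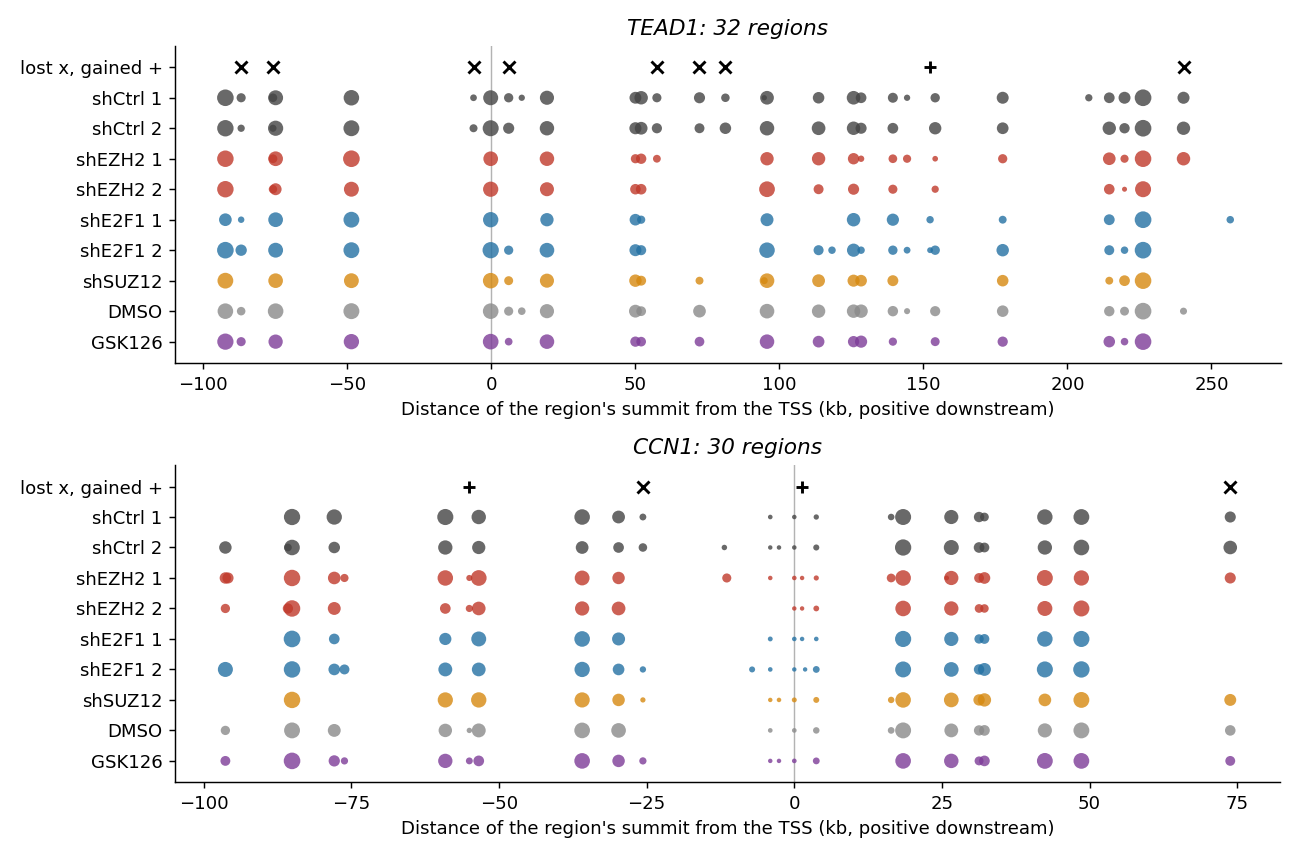
Each dot is a region with a peak in 1 library (rows), placed by the distance of its summit from the TSS in kb (x axis) at TEAD1 and CCN1, and dot area grows with the percentile of fold enrichment. Crosses mark regions lost and plus signs regions gained with shEZH2 or shE2F1. TEAD1 has 32 regions, and the dots of CCN1 are small at the promoter and large in the flanks.

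A region was called lost when both shCtrl libraries and neither knockdown library had a peak, and gained in the reverse case. With shEZH2, 13 of the 212 regions (6.13%) were lost and 3 (1.42%) gained, beside 5.87% and 0.727% of all regions. With shE2F1, 12 (5.66%) were lost and 1 (0.472%) gained, beside 3.36% and 2.56%. No promoter region of the 10 genes was lost or gained with either. Both comparisons use the same shCtrl libraries. With lists cut to the same number of peaks by −log10 p, 58626 in each library, the losses fell from 13 to 3 with shEZH2 and from 12 to 6 with shE2F1, and the gains stayed at 3 and 1. Over all regions, 3.33% and 3.23% were then lost, and 2.3% and 3.155% gained. The losses at the 10 genes thus moved with the length of the lists, and the part of depth was not tested.

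The lost regions had 10 to 45 summit tags in shCtrl for shEZH2 and 10 to 27 for shE2F1. Their fold percentiles there ran from 1.71 to 58.1 (median 25.1) and from 9.76 to 63.35 (median 31.3). TEAD1 held 5 of the 13 regions lost with shEZH2 and 6 of the 12 lost with shE2F1. Peaks were found at 29 and 25 of its 32 regions in shCtrl, at 21 and 16 in shEZH2, at 16 and 22 in shE2F1, at 19 in shSUZ12, at 23 in DMSO and at 20 in GSK126. Both shCtrl libraries were thus above all others at this gene, DMSO included. A pair of TEAD1 regions, at chr11:12668172-12668442, 6.07 kb upstream, and at chr11:12755578-12755847 in intron 2, had a peak in the shCtrl libraries alone, with 10 and 13 tags and with 13 and 23 tags. Another, at chr11:12746617-12747028 in intron 2, was lost with both shEZH2 and shE2F1, with 16 and 16 tags in shCtrl, and had peaks of 13, 21 and 14 tags in shSUZ12, DMSO and GSK126.

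The other TEAD1 regions lost with shEZH2 were at chr11:12587477-12587934, 86.7 kb upstream, and at chr11:12680349-12680673 in intron 2, where shCtrl had 27 and 37 tags. Those lost with shE2F1 were at chr11:12598618-12599011, 75.66 kb upstream, at chr11:12731854-12732204 in intron 2 and at chr11:12914585-12914897 in intron 10. The only gain with shE2F1 was in intron 3 of TEAD1, at chr11:12826539-12826861, with 13 and 17 tags and a −log10 q of 4.85 at most. TEAD2 lost the region at chr19:49331639-49331922, 30.62 kb downstream, with shEZH2 and shE2F1 alike. It had 27 and 27 tags in shCtrl, 18 in DMSO and 18 in GSK126, and no peak in any of the 5 knockdown libraries, and it is the one region of the 212 present in shCtrl and DMSO and absent from every knockdown.

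Outside TEAD1 and TEAD2, shEZH2 lost 1 region at TEAD3 (chr6:35552340-35552784), 2 at TEAD4 (chr12:2932651-2933405 in intron 6 of TULP3 and chr12:2960497-2960930 in intron 2 of TEAD4), 1 at WWTR1 (chr3:149717448-149717745), 1 at CCN1 (chr1:85555007-85555318) and 2 at AMOTL2 (chr3:134406355-134407332 and chr3:134473921-134474258). The region in intron 2 of TEAD4, 1.38 kb from its TSS, was the tallest, with 34 and 45 tags in shCtrl. It also had no peak in the second shE2F1 library and in GSK126. YAP1, CCN2 and ANKRD1 lost no region with shEZH2.

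With shE2F1, the losses outside TEAD1 and TEAD2 were 1 at WWTR1 (chr3:149605816-149606268, intron 2), 1 at CCN1 (chr1:85654275-85654707 in intron 9 of ZNHIT6), 1 at CCN2 (chr6:131926190-131926640) and 2 at AMOTL2 (chr3:134441411-134441709 and chr3:134446745-134447120). These had 14 to 26 tags in shCtrl. TEAD3, TEAD4, YAP1 and ANKRD1 lost none.

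The 3 regions gained with shEZH2 were also present in libraries other than shEZH2. One was in intron 2 of WWTR1 (chr3:149580165-149580487), with 50 and 46 tags in shEZH2, 61 in the second shE2F1 library, 55 in shSUZ12, 68 in DMSO and 59 in GSK126, and no peak in either shCtrl library. At CCN1, the region 55.0 kb upstream (chr1:85525642-85525903) had 24 and 21 tags in shEZH2, 24 in DMSO and 26 in GSK126. The region in the coding sequence of exon 3 of CCN1 (chr1:85582022-85582253) had 119 and 86 tags in shEZH2 and 92 in the first shE2F1 library. Its fold percentiles were among the lowest, as at the CCN1 promoter next to it, and a library without a peak there can still hold many tags.

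With 1 library each, shSUZ12 lost 15 regions and gained 13 against shCtrl, beside 6.86% and 5.35% of all regions, which for the 212 is 7.08% and 6.13%. GSK126 lost 18 and gained 12 against DMSO (8.49% and 5.66%), beside 11.2% and 5.67%. Of the 18 regions lost with GSK126, 9 lay in gene bodies and 9 in flanks, and the most at 1 gene was 4, at TEAD3 and at WWTR1. Neither comparison has a replicate check.

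**Figure D4:**
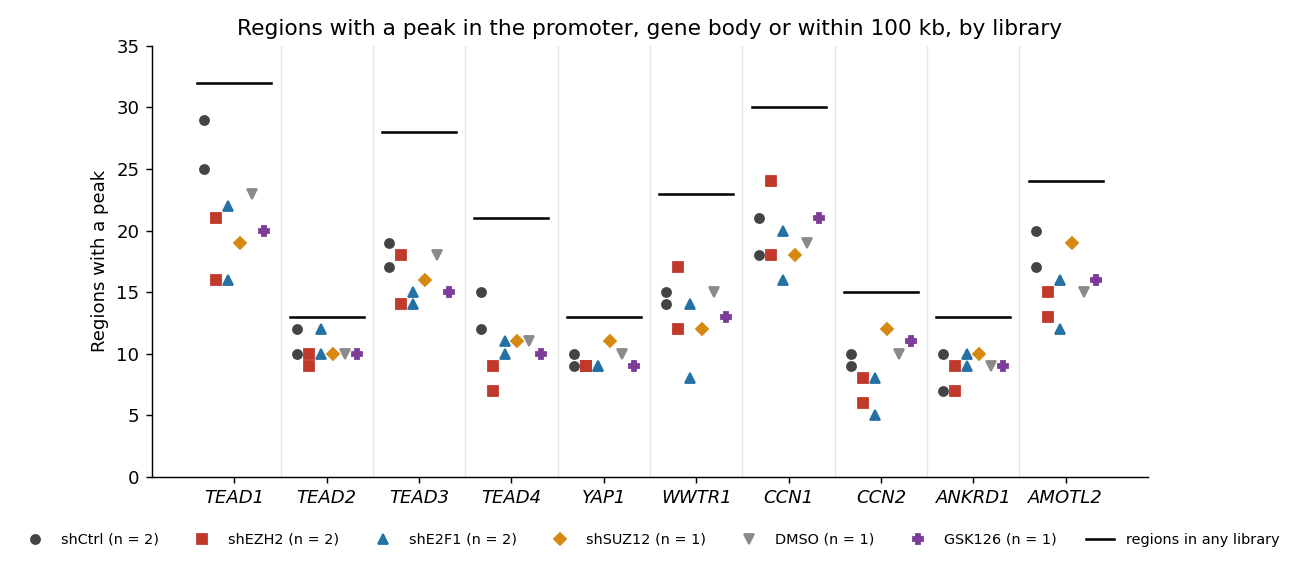
Points give the number of regions with a peak in each library (y axis) for each gene (x axis), and black lines give the regions found in any library. At TEAD1 both shCtrl libraries, at 29 and 25, lie above the other 7, and at CCN2 the shSUZ12 library, at 12, lies above the rest.

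The TEAD letters, GGAATG or CATTCC, were found within 100 bp of the summit in 46 of the 212 regions, or 21.7% (95% Wilson interval of 16.7% to 27.7%, for counting error only), beside 17.1% of all regions and 16.5% of regions near other protein-coding genes. At the targets CCN1, CCN2, ANKRD1 and AMOTL2 they were in 25 of 82 regions, or 30.5%, and at YAP1, WWTR1 and the TEAD genes in 21 of 130, or 16.2%. Regions of a gene share their sequence surroundings, and the gap between these shares was not tested. CCN1 had 10 of 30, CCN2 5 of 15, AMOTL2 7 of 24, YAP1 4 of 13 and TEAD3 1 of 28. Among the promoter regions, those of YAP1, CCN2, ANKRD1 and AMOTL2 held the letters, as did the region shared by TEAD2 and DKKL1, beside 7.57% of promoter regions over all genes.

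**Figure D5:**
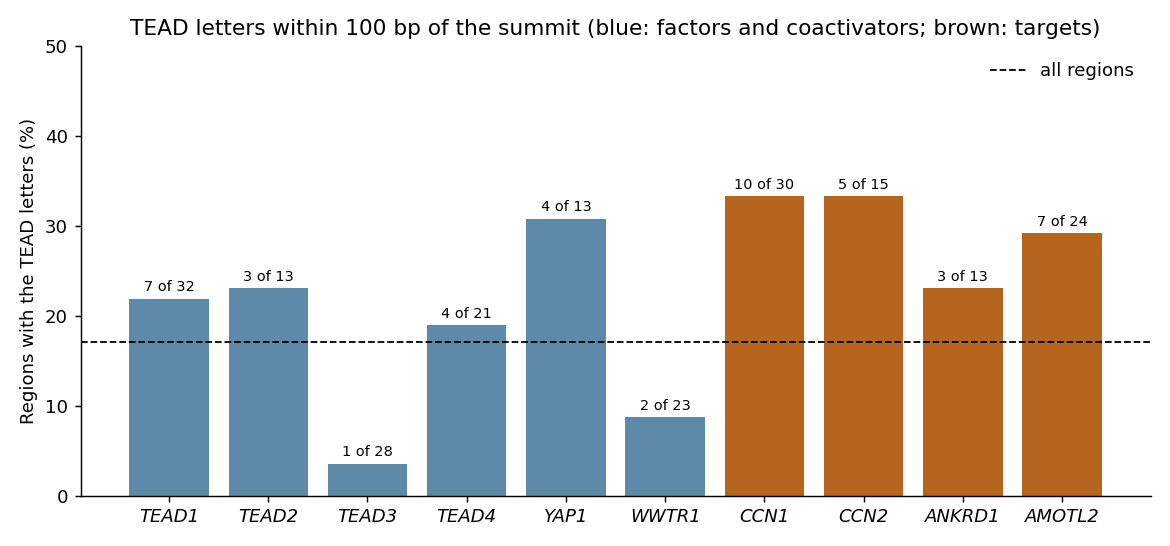
Bars give the percentage of regions with GGAATG or CATTCC within 100 bp of the summit (y axis, from 0) for each gene (x axis), with counts above them and a dashed line at the 17.1% of all regions. All 4 target genes in brown lie above the line, as do TEAD1, TEAD2, TEAD4 and YAP1 in blue, while TEAD3 and WWTR1 lie below it.

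At CCN1 the letters were in 7 regions with a peak in every library, from the one 85.01 kb upstream to one 42.44 kb downstream (chr1:85622734-85623711), which had a median percentile of 83.4. The AP-1 letters TGANTCA, on either strand, were found in 64 of the 212 regions, or 30.2%, beside 31.3% of all regions, and both kinds of letters in 9, or 4.25%, beside 5.81%. The E2F letters TTTGGCGC or TTTCCCGC were in 2 regions, or 0.943%, beside 0.562%. These were the region 99.15 kb upstream of YAP1, which held all 3 kinds of letters, and a region 65140 bp upstream of TEAD3 (chr6:35561835-35562666), and both had a peak in all 9 libraries. Of the 21 regions lost with shEZH2 or shE2F1, 6 held the TEAD letters, 7 the AP-1 letters and none the E2F letters.

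Among 17 Hippo kinases and regulators, 15 had a promoter peak in every library, and VGLL1 and VGLL2, cofactors of TEAD in particular tissues, had none in any. Their median percentile was 79.96. With shEZH2, 1 of 15 was lower and 4 higher, and with shE2F1 3 were lower and 4 higher, beside the same 29.7%, 10.6%, 17.0% and 19.2%. AMOT, the first angiomotin, gave 77.1 and 77.5 in shCtrl against 66.3 and 64.9 in shEZH2 and 77.9 and 86.8 in shE2F1, and the shE2F1 difference changed sign with a promoter window of 500 bp. VGLL3, a TEAD cofactor, gave 33.4 and 28.0 in shCtrl, 53.5 and 44.4 in shEZH2 and 16.8 and 18.7 in shE2F1, so that shEZH2 and shE2F1 fell on opposite sides of shCtrl, and the difference between them was not tested.

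Among 18 other targets of YAP and TAZ, 15 had a promoter peak in every library, at a median percentile of 33.7, below the 78.5 over all protein-coding genes. With shEZH2, 8 of 16 were lower and 1 (IGFBP3) higher, and with shE2F1 6 of 15 were lower and 0 higher, as counts with no test, beside 29.7% lower and 10.6% higher of all promoters with shEZH2 and 17.0% and 19.2% with shE2F1. The largest drop with shEZH2 was at NUAK2, a kinase of the AMPK family, from 45.5 and 50.6 in shCtrl to 23.9 and 18.3. AXL, a receptor tyrosine kinase, went from 21.4 and 20.6 to 0.807 and 2.56, a drop that was not there when any coding TSS of the gene was allowed. With shE2F1 the largest drop was at GADD45A, a stress response gene, from 43.7 and 48.0 to 19.3 and 15.01, while on summit tags its means differed by -0.0374 points. The count for shEZH2 turned with the length of the lists: with lists of equal length, 2 of 16 were lower and 7 higher, beside 14.4% and 23.9% of all promoters. For shE2F1 it held, with 6 lower and 1 higher. The shSUZ12 library lay above both shCtrl libraries at 13 of 16, beside 52.6% of all promoters, and GSK126 lay below DMSO at 14 of 18, beside 56.3%.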

How the data were processed

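ATAC-seq was performed by the authors in 9 MDA-MB-231 libraries, with reads aligned by Bowtie2, shifted for the Tn5 cutting position and called into peaks per library. The ATAC-seq peak caller is not given in the sources used here. The deposited lists give peak positions, a score (about 10 times −log10 q), the fold enrichment over local background (a ratio), −log10 p, −log10 q and the summit. Coordinates lay within the chromosomes of hg38.

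Groups were taken from the labels. Promoter windows reached 1 kb up- and downstream of the canonical TSS in GENCODE 44. Fold enrichment was ranked within each list, and peaks were merged at an overlap of 1 bp. A whole number of summit tags and the background that give the deposited fold and −log10 p were recovered for 100% of peaks, to within 0.00118 in −log10 p. These stand in for depth, since read totals were not used here. A promoter was called lower or higher when both knockdown libraries lay on 1 side of both shCtrl libraries. No test was made. All 10 genes are named, with each gained or lost region of shEZH2 and shE2F1 and the strongest distal region per gene. Of the longer lists, extremes are named. The 10 genes and the lists were chosen with earlier results of these data known. The alternatives were a −log10 q of at least 5, lists of equal length, other ranks, windows and distances, and leaving out each replicate. Ranks of summit tags, and the longer lists under these settings, were added after the data were seen. Scripts were tested on simulated data. Python 3.11.15, numpy 2.4.6, pandas 2.3.3, scipy 1.17.1 and matplotlib 3.10.9 were used.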

Additional observations from a re-analysis of the deposited data

Results flagged for a closer look

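At 2 Hippo regulators the shEZH2 and shE2F1 libraries lay on opposite sides of both shCtrl libraries, which is what set them apart here. The difference was not tested. The VGLL3 promoter percentile differed from shCtrl by 18.2 points with shEZH2 and by -13.0 points with shE2F1 (33.4 and 28.0 in shCtrl). The AMOT promoter percentile differed by -11.7 points with shEZH2 and by 5.04 points with shE2F1 (77.1 and 77.5 in shCtrl), and its first shE2F1 library, at 77.9, was just above shCtrl. In a window of 500 bp the shE2F1 difference at AMOT was -5.96 points, so that shEZH2 and shE2F1 were then on the same side.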

How the results depend on the processing

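A promoter peak in every library was found at 9 of the 10 genes with lists of equal length or a window of 500 bp, at 8 with the summit required within 1 kb, and at all 10 with a −log10 q of at least 5 or with any coding TSS. With a −log10 q of at least 5, 0 regions were gained with shE2F1 (background 2.49%). With lists of equal length, 4 promoters were higher with shEZH2 and 0 with shE2F1, and 3, 6, 6 and 10 regions were lost with shEZH2, shE2F1, shSUZ12 and GSK126. The shares over all promoters were then 23.9% and 22.35%, and those of all regions lost were 3.33%, 3.23%, 5.32% and 8.57%. Ranked by −log10 p, 3 promoters were lower and 0 higher with shEZH2 (background 42.2% and 4.14%) and 4 lower with shE2F1 (background 22.8%). Ranked by summit tags, 3 were lower with shEZH2 (background 46.3%). With the summit required within 1 kb, 0 promoters were higher with either knockdown (background 10.7% with shEZH2 and 19.3% with shE2F1). Here TEAD2 and YAP1 lost values in some libraries by construction. With a window of 500 bp, 1 promoter was higher with shE2F1 (background 19.2%). With summit windows of 250 bp, 2 regions were gained with shE2F1 (background 2.7%). Within 50 kb, 7 were lost with shSUZ12 and 11 with GSK126, over fewer regions (background 6.86% and 11.2%). Among the differences of named promoters called lower or higher, those that changed sign were GADD45A with shEZH2 (1.73 with lists of equal length and 0.575 on summit tags), AMOT with shE2F1 (-5.96 with a window of 500 bp) and AXL (1.49 with shEZH2 and 0.972 with shE2F1 when any coding TSS was allowed), and none at the 10 genes. Within 250 bp of the summit, 41.5% of the regions held the TEAD letters, beside 31.1% of all regions. Leaving out 1 library relaxes each call by construction. Promoters lower then numbered 1 to 5 with shEZH2 and 2 to 4 with shE2F1, and promoters higher 1 to 4 and 2 to 4. Over all promoters, 41.99% to 53.76% were then lower with shEZH2 and 27.34% to 44.9% with shE2F1. The shares higher were at most 26.5% with shEZH2 and 29.56% to 43.85% with shE2F1. Regions lost numbered 14 to 30 with shEZH2, 16 to 30 with shE2F1 and 29 to 32 with shSUZ12, and regions gained 3 to 15, 1 to 16 and 17 to 21. Over all regions, 7.62% to 14.1%, 4.55% to 10.3% and 13.3% to 15.3% were lost, in the same order. Those gained were 1.42% to 5.5%, 3.93% to 11.2% and 7.55% to 8.89%. The gains came mostly with the second shEZH2 library left out (15, background 5.5%) and the first shE2F1 library left out (16, background 11.2%). Replicate numbers did not pair the libraries: across 12067 promoters, which are not independent, the difference between replicates 2 and 1 correlated at 0.0540 between shCtrl and shEZH2 and 0.0588 between shCtrl and shE2F1. With the replicate number as a block, 2 promoters were lower with shEZH2 (background 39.9%), and no other count changed by over 1.5 times. The read totals were not used here, and a region without a peak is one below the caller's threshold, not one without tags.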
